A study of Homo sapiens with 6 samples.

Results

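The coronins are a family of actin-binding proteins, and 7 of its genes, CORO1A, CORO1B, CORO1C, CORO2A, CORO2B, CORO6 and CORO7, were taken by symbol from a table of 64253 Ensembl identifiers. All 7 symbols matched 1 identifier each. The family was chosen by the log2 fold change of CORO2B, which was among the lowest in earlier results of the same comparison. Differences between the groups are therefore given for its members as a description, with no p-value, and calls only as counts beside the share of all genes called. Of the 7 genes, 6 had enough counts to be fitted and 1, CORO7, was listed at 0 in every library.

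RNA came from NCI-H1299, a human lung cancer cell line that the labels call lung adenocarcinoma. One group was wild type cells (3 libraries). The other was cells made to overexpress MTSS1 from a plasmid with an mCherry tag, kept under hygromycin and sorted by flow cytometry (3 libraries). The labels mention HEK293T, a human kidney line, in the transfection step. Neither group is labelled as carrying a control plasmid, so MTSS1 itself cannot be told apart from the tag, the selection or the sorting, and the sources used here do not say whether the sorted cells are a clone or a pool. Nothing in the labels says that the replicates were separate cultures, so the errors below describe the spread between these libraries.

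Coronins carry a beta-propeller of WD repeats that binds filamentous actin, and most of them end in a coiled coil through which they form oligomers. At the front of moving cells, type I coronins bind both actin filaments and the Arp2/3 complex, the machine that starts actin branches, and they help to bring cofilin, which severs filaments, to older branches. Type II coronins, CORO2A and CORO2B, are less studied, and CORO7 carries a tandem pair of propellers and acts at the Golgi. MTSS1 is an I-BAR protein that bends the plasma membrane and also acts on actin.

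Total counts ranged from 13883380 to 29479453 per library. As a check of group membership, the introduced gene MTSS1 was at 24.2, 18.0 and 24.3 CPM in wild type and at 550.3, 544 and 568 CPM in overexpressing cells (CPM is the count scaled by the library size after TMM normalization). It rose by 4.65 on the log2 scale (edgeR adjusted p = 3.62e-07). Of 10 lung epithelial markers, SFTPB and SCGB1A1 were listed at 0 and 5 were fitted, with a median log2 fold change of 0.66 (0 higher and 1 lower, 2 and 2 with pairs of libraries as a block). KRT8 was lower, at 165 ± 41.2 and 49.6 ± 19.2 CPM (SD, n = 3; edgeR adjusted p = 0.0106), a call lost without overexpressing replicate 3 (edgeR adjusted p = 0.0552). KRT18 stood at 522 ± 105 and 299 ± 88.3 CPM. The low-level markers NKX2-1, KRT7 and EPCAM had fold changes of the opposite sign. NKX2-1 stood at 1.20 ± 0.507 and 2.63 ± 0.286 CPM and KRT7 at 0.857 ± 0.277 and 1.77 ± 0.323 CPM. EPCAM stood at 0.557 ± 0.139 and 0.881 ± 0.0738 CPM. None of the 5 fitted markers overlapped between the groups. Over all fitted genes, 25.5% did not overlap, 4.28% were called and 22.7% were called with the block. The summed level of the list, nearly all KRT8 and KRT18, lay between 571 and 853 CPM in wild type and between 259 and 470 CPM in overexpressing libraries.

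The sequences around the starts of 3 coronin genes are shown because these are the type II pair, which held the lowest fold changes of the family, and the most abundant member. Each runs from 250 bases before to 50 after a RefSeq start on GRCh38.p14, 5′ to 3′ on the gene's strand. Of the 5 starts listed for CORO2B and the 3 for CORO1C, the one nearest to the gene start in GENCODE release 29 is given, and counts per gene do not say which start was in use. Capitals mark the GC box GGGCGG and the TATA sequence TATAAA on either strand (CCGCCC and TTTATA on the other). GC boxes can overlap one another in these windows, as CCGCCCCGCCC does in CORO2A, and no GC box overlapped a TATA sequence.
CORO2B (chr15:68578743-68579042, plus strand): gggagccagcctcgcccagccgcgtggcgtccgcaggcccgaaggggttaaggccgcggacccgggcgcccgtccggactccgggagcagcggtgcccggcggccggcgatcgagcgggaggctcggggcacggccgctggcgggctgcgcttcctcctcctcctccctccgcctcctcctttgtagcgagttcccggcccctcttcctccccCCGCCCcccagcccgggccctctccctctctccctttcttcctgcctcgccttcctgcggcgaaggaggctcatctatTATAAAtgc
CORO2A (chr9:98192588-98192887, minus strand): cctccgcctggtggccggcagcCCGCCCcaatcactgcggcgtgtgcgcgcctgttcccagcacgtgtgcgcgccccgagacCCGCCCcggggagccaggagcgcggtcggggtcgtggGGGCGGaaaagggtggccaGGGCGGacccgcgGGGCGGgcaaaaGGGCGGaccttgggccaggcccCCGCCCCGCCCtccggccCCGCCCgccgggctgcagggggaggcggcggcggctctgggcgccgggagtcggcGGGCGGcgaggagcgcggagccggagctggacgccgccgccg
CORO1C (chr12:108731469-108731768, minus strand): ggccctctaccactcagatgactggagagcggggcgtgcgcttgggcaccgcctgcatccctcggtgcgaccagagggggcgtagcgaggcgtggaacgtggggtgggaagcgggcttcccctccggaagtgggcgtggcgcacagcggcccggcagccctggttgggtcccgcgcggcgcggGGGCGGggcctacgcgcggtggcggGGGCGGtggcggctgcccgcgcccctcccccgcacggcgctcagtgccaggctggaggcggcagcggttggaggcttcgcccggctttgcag

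All of these windows were rich in G and C, at 73.0% for CORO2B, 81.7% for CORO2A and 76.3% for CORO1C, against a median of 58.7% over 35116 RefSeq start windows of the same length. They held 33, 45 and 37 CG dinucleotides, against a median of 14. The windows at the other starts listed for CORO2B were at 48% to 58% G and C with 3 to 5 CG dinucleotides. Those at the other starts of CORO1C were at 73.7% and 42.7%, with 22 and 3 CG dinucleotides. CORO2A held 10 GC boxes, CORO1C 2 and CORO2B 1, and 45% of all windows held at least 1. CORO2B held 1 TATAAA, as did 11.5% of all windows in either orientation, while CORO2A and CORO1C held none. The TATAAA of CORO2B lies within the 50 bases after the start, not before it. The NF-κB consensus motif was searched on both strands because the study's title concerns NF-κB. It was not found in these 3 windows and occurs in 11.3% of all. Among the windows of the other coronin genes, that of CORO1B held 1 such motif. These matches are letters in a window and not evidence of binding.

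CORO2B, a type II coronin also known as ClipinC and described in neurons and at focal adhesions, was lower in all 3 MTSS1-overexpressing libraries. It lies on chromosome 15 from 68578969 to 68727806 on the plus strand (ENSG00000103647, GRCh38). It stood at 27.4, 20.1 and 24.6 CPM in wild type and at 6.24, 5.04 and 5.36 CPM in overexpressing cells. These values came from 516, 607 and 654 counts in wild type and from 85, 131 and 134 in overexpressing libraries. The lowest wild type library was thus above the highest overexpressing library, and the groups did not overlap. Group means were 24.0 ± 3.67 and 5.55 ± 0.624 CPM (SD, n = 3), a 4.35-fold lower level (log2 fold change -2.12, SE 0.16, over wild type). In the 6 fits without 1 library its log2 fold change lay between -2.24 and -2.02. In bulk RNA, fewer cells with the transcript and less transcript per cell cannot be told apart.

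CORO2A, the other type II coronin, has been found with the NCoR corepressor complex in the nucleus. It lies on chromosome 9 (98120975 to 98192640, minus strand, ENSG00000106789). It stood at 4.77, 5.26 and 5.82 CPM in wild type and at 2.79, 4.11 and 3.28 CPM in overexpressing cells. The groups did not overlap, with the lowest wild type library only slightly above overexpressing replicate 2. Means were 5.28 ± 0.523 and 3.40 ± 0.668 CPM (SD, n = 3; log2 fold change -0.63, SE 0.22), from 404 and 227 pooled counts. CORO2A was not past the threshold (an adjusted p under 0.05 in the edgeR quasi-likelihood test over all fitted genes), except in the fit that treats neighbouring title numbers as pairs (the replicate block), where its log2 fold change was -0.64.

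CORO1C, a broadly expressed type I coronin of cell edges and of trafficking of the GTPase Rac1, was the most abundant member. It lies on chromosome 12 (108645109 to 108731596, minus strand, ENSG00000110880). It stood at 352, 322 and 369 CPM in wild type and at 349, 365 and 364 CPM in overexpressing cells, so the groups overlapped. Means were 348 ± 23.5 and 359 ± 8.92 CPM (SD, n = 3; log2 fold change 0.05, SE 0.08). With 26210 and 23347 pooled counts it is the member measured with the smallest error, and the sign of its fold change turned without wild type replicate 2 (log2 fold change -0.0053).

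CORO1B, the type I coronin that brings the Slingshot phosphatase SSH1 to the Arp2/3 complex, lies on chromosome 11 (67435510 to 67443821, minus strand, ENSG00000172725). It stood at 123, 124 and 105 CPM in wild type and at 107, 129 and 83.5 CPM in overexpressing cells. The overexpressing libraries spread around the wild type range on either side, and replicate 3 was the lowest library of each group. Means were 117 ± 10.8 and 106 ± 22.6 CPM (SD, n = 3; log2 fold change -0.14, SE 0.15), and without overexpressing replicate 3 the log2 fold change was 0.01. Exons of PTPRCAP, listed at 0 in all 6 libraries, cover 24.3% of the exon bases of CORO1B on the same strand. How the authors' counting treated shared bases is unknown here, and whether its level is understated was not tested.

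CORO1A, the coronin of leukocytes, was low in both groups. It lies on chromosome 16 (30182827 to 30189076, plus strand, ENSG00000102879). It stood at 2.02, 1.55 and 1.50 CPM in wild type and at 2.57, 2.15 and 1.92 CPM in overexpressing cells. The groups overlapped, since wild type replicate 1 lay above overexpressing replicate 3. With 125 and 139 pooled counts the log2 fold change was 0.39 (SE 0.29, n = 3 per group). Its antisense gene CORO1A-AS1, which covers 11.1% of its exon bases on the other strand, had 1 count over the 6 libraries. The 10 leukocyte markers, PTPRC and CD3E among them, summed to between 1.17 and 2.42 CPM in wild type and between 0.808 and 4.42 CPM in overexpressing libraries. None of the 10 was at 0 in all 6 libraries and LAPTM5 was the highest, with 0.695 ± 0.482 and 1.09 ± 0.967 CPM (SD, n = 3). Their part in the CORO1A counts was not tested.

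CORO6, a type I coronin known from muscle, lies on chromosome 17 (29614756 to 29622907, minus strand, ENSG00000167549). It stood at 2.02, 2.28 and 1.31 CPM in wild type and at 2.06, 2.65 and 1.36 CPM in overexpressing cells. Within each group replicate 2 was the highest and replicate 3 the lowest, and the groups overlapped over nearly their whole range. The log2 fold change was 0.11 (SE 0.36, n = 3 per group, 142 and 131 pooled counts), and its sign turned without wild type replicate 3 (-0.09) or overexpressing replicate 2 (-0.15). The muscle regulators MYOD1 and MYOG were listed at 0, as was TNNI1, and the highest of the 8 muscle markers was TNNT1 with 20.8 ± 0.616 and 23.1 ± 3.30 CPM (SD, n = 3). The 8 markers summed to between 24.1 and 25.5 CPM in wild type and between 24.1 and 29.8 CPM in overexpressing libraries.

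**Figure D1:**
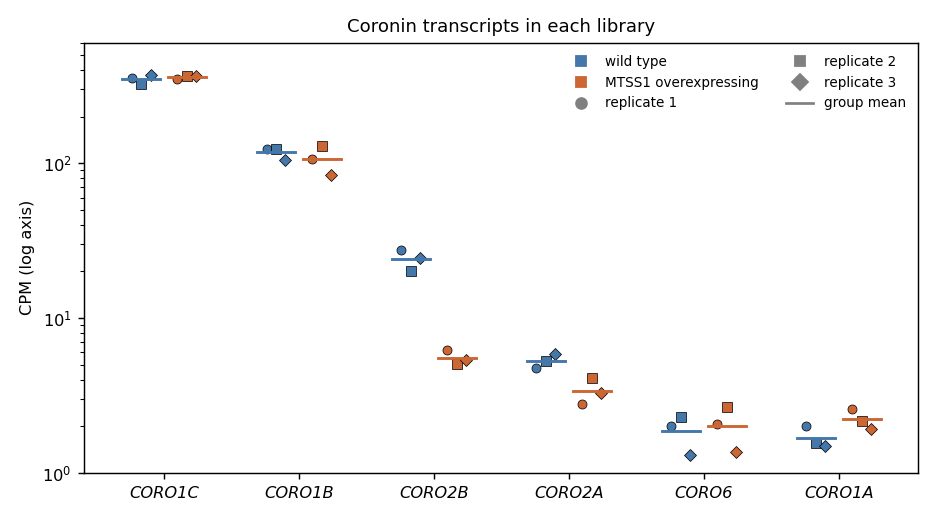
CPM of the 6 coronin genes with counts (log axis) in each of the 6 libraries. Points are libraries, shaped by replicate number, and lines are group means; CORO7, listed at 0, is not drawn. The overexpressing libraries lie below all wild type libraries for CORO2B (6.24 CPM at most against 20.1 CPM at least) and CORO2A (4.11 against 4.77 CPM), and the groups overlap for the other 4 genes.

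CORO7 (ENSG00000262246, chromosome 16, 4354542 to 4425705, minus strand) had 0 counts in all 6 libraries, and this cannot be read as absence. The read-through gene CORO7-PAM16 covers 37.5% of its exon bases on the same strand and was also listed at 0, as was PAM16. CORO7 lies in a run of 10 consecutive coding genes, from GLIS2 to C16orf96, that each had at most 37 counts over the 6 libraries. Among them are DNAJA3, a mitochondrial chaperone gene that most cells use, with 37 counts and the heme oxygenase gene HMOX2 with 4. The next genes on either side, TFAP4 and UBALD1, had 1695 and 2243 counts. This run was singled out after its values were seen.

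In all, 1 of 6 fitted coronin genes, CORO2B, was past the threshold and lower, where 4.28% of 16091 genes were past it in either direction, 2.45% lower and 1.82% higher. With the replicate block it was 2 of 6, CORO2B and CORO2A, where 22.7% of all genes were past it, 10.7% higher and 12% lower. The count was 1 of 6 in each of the other 11 fits. The share of all genes past it was 4.25% with DESeq2 size factors, 7.79% with the DESeq2 Wald test, 5.19% without a filter and 2.09% with the neighbour offset. Without wild type replicate 1, 2 or 3 it was 2.06%, 2.1% and 0.874%. Without overexpressing replicate 1, 2 or 3 it was 1.96%, 1.51% and 1.18%, and without both replicates numbered 1 it was 0.807%. Levels did not overlap between the groups for 2 of 6 members, and for 25.5% of all fitted genes (13.5% lower). Nothing is read from these counts, since CORO2B was chosen by its fold change in this comparison. The median log2 fold change of the 6 members was -0.05, and that of all fitted genes was 0.00.

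**Figure D2:**
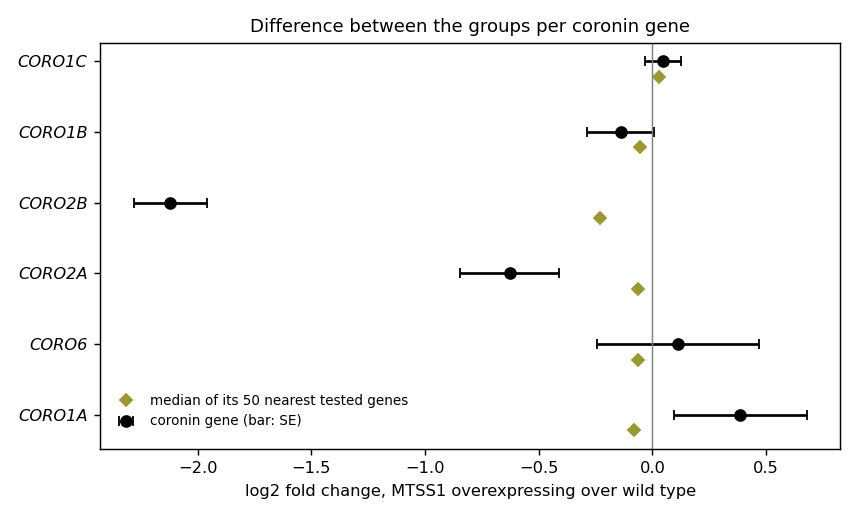
Log2 fold change of each coronin gene, MTSS1-overexpressing over wild type, with its SE from the edgeR fit (black), and the median log2 fold change of its 50 nearest fitted genes on the chromosome (diamonds). CORO2B lies at -2.12 with a neighbour median of -0.23, CORO2A at -0.63 with -0.06, and the error bars of the other 4 members are drawn between -0.29 and 0.68.

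To compare genes with each other, CPM was divided by the summed exon length in kilobases. In wild type cells the order was CORO1C with 53.2 ± 3.60 CPM per kb, CORO1B with 22.0 ± 2.03, CORO2B with 6.00 ± 0.919, CORO2A with 0.924 ± 0.0915, CORO6 with 0.433 ± 0.116 and CORO1A with 0.347 ± 0.0580 (SD, n = 3). Ranges of neighbours in this order did not overlap, except for CORO6 and CORO1A. In overexpressing cells the means were 55.0 ± 1.36, 19.99 ± 4.24, 1.39 ± 0.156, 0.594 ± 0.117, 0.468 ± 0.150 and 0.455 ± 0.0675 CPM per kb for the same genes. There the ranges of CORO2A, CORO6 and CORO1A overlapped. With the length of the longest transcript instead, CORO1A stood at 0.585 CPM per kb in wild type and CORO6 at 0.460. This turned the order of that pair. In overexpressing cells this length put CORO1A, at 0.766 CPM per kb, above CORO2A at 0.6025 and CORO6 at 0.4972.

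CORO2B made up a smaller part of the family in overexpressing cells, which largely restates the fold change by which the family was chosen. It held 7.21% ± 0.845 of the summed CPM per kb of the 6 genes in wild type and 1.79% ± 0.262 in overexpressing cells (SD, n = 3). CORO1C held 64.1% ± 2.75 and 70.8% ± 4.10, and CORO1B 26.6% ± 2.96 and 25.5% ± 4.01. The CORO1C level was 8.87 times that of CORO2B per kb in wild type and 39.7 times in overexpressing cells. CORO2B was 6.49 times CORO2A in wild type and 2.34 times in overexpressing cells. CORO7 is left out of these shares.

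Most genes around CORO2B had fold changes slightly below 0. The 50 nearest fitted genes on chromosome 15 had a median log2 fold change of -0.23, and 40 of the 50 were below 0. Of them, 0 were higher and 5 lower past the threshold (10%, against 4.28% of all genes). Over chromosome 15 as a whole the median was -0.28 over 509 genes, 1 of them higher and 59 lower past the threshold. None of the 50 neighbours had a lower fold change than CORO2B, the lowest being THSD4 at -1.39, and 4 of the 509 genes of the chromosome did. CORO2B was chosen for its low fold change in this comparison, so nothing is read from this rank. Whether the change in CORO2B and the shift of the chromosome are linked was not tested.

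FEM1B, a substrate receptor of ubiquitin ligases and the nearest fitted gene before CORO2B, stood at 61.4, 59.3 and 65.3 CPM in wild type and at 45.7, 45.1 and 46.9 CPM in overexpressing cells. It fell by 0.43 on the log2 scale (SE 0.08, edgeR adjusted p = 0.0237). That call went in 5 of the 6 fits without 1 library (highest edgeR adjusted p 0.111) and held without wild type replicate 2. The other 2 fitted genes before CORO2B, CLN6 and CALML4, had log2 fold changes of -0.11 and -0.66. The 3 after it, ANP32A, SPESP1 and GLCE, had -0.13, -0.25 and -0.29, and none of these 5 passed the test. With the replicate block GLCE did (edgeR adjusted p = 0.015). When each gene's fold change was taken relative to its 50 neighbours (neighbour offset), CORO2B was at -1.89, and FEM1B was at -0.21 and not past the threshold.

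The other coronin genes lay among neighbours with medians nearer to 0. These were -0.08 for CORO1A, -0.06 for CORO1B, 0.03 for CORO1C, -0.06 for CORO2A and -0.07 for CORO6, over 50 genes each. Relative to them, CORO2A had a log2 fold change of -0.57 and CORO1A of 0.47, and neither was past the threshold.

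**Figure D3:**
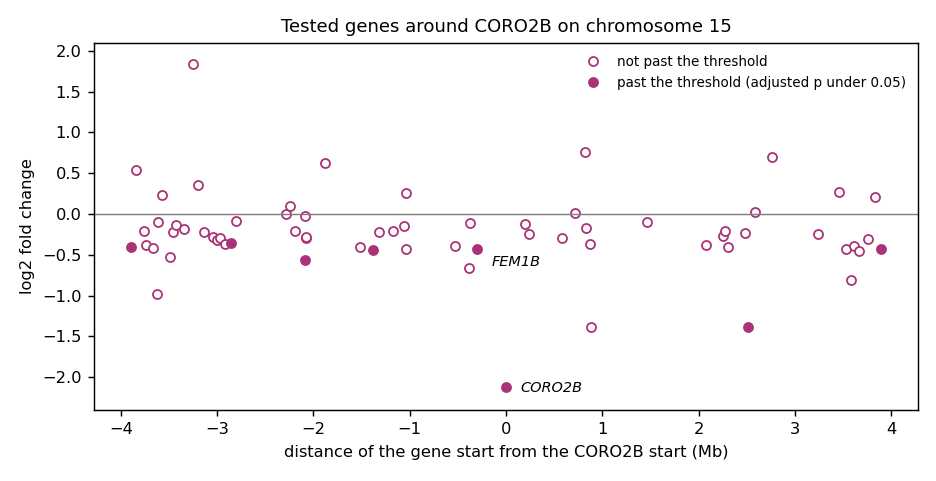
Log2 fold change (MTSS1-overexpressing over wild type) of fitted genes within 4 Mb of the start of CORO2B on chromosome 15, against the distance of their starts in Mb. Filled points were past the threshold. Most points lie slightly below 0 around the neighbour median of -0.23, and CORO2B, chosen for its low fold change, is the lowest at -2.12.

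By position, 3 type I coronin genes lie near genes of the Slingshot phosphatases, which activate cofilin by removing its inhibitory phosphate. SSH1 is the next coding gene to CORO1C on chromosome 12, 46.6 kb away, and SSH2 the next to CORO6 on chromosome 17, 3.03 kb away. SSH3 lies 123 kb from CORO1B on chromosome 11 with 8 coding genes between. The log2 fold changes of SSH1, SSH2 and SSH3 were 0.29, -0.08 and -0.25, and none passed the test. With the replicate block SSH1 did (edgeR adjusted p = 0.00131), at 187 ± 19.1 and 229 ± 13.7 CPM (SD, n = 3) without overlap of the groups.

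The genes most like CORO2B over the 6 libraries were sought among 10983 fitted genes whose mean was 5 CPM or more, by Euclidean distance between log2(CPM + 0.1) values centred on each gene's mean. The 5 nearest were MPP4, a membrane scaffold gene, at a distance of 0.535, the adhesion molecule gene ALCAM at 0.538, the leukocyte adhesion receptor gene ICAM1 at 0.606, TMEM156 at 0.692 and the aminopeptidase gene ANPEP at 0.724. These genes were picked for a matching pattern, so their fold changes are a description. MPP4 stood at 15.5, 9.26 and 16.2 CPM in wild type and at 4.26, 3.19 and 3.92 CPM in overexpressing cells. ALCAM stood at 25.6, 24.1 and 27.4 CPM in wild type and at 7.12, 7.88 and 6.84 CPM in overexpressing cells. Their log2 fold changes were -1.86 and -1.82, and those of ICAM1, TMEM156 and ANPEP were -2.24, -1.70 and -1.69. All 5 genes were without overlap between the groups. Wild type replicate 2 was the lowest wild type library for CORO2B and for 4 of the 5, ICAM1 being the exception. ANPEP also lies on chromosome 15, and the others lie on chromosomes 2, 3, 19 and 4.

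**Figure D4:**
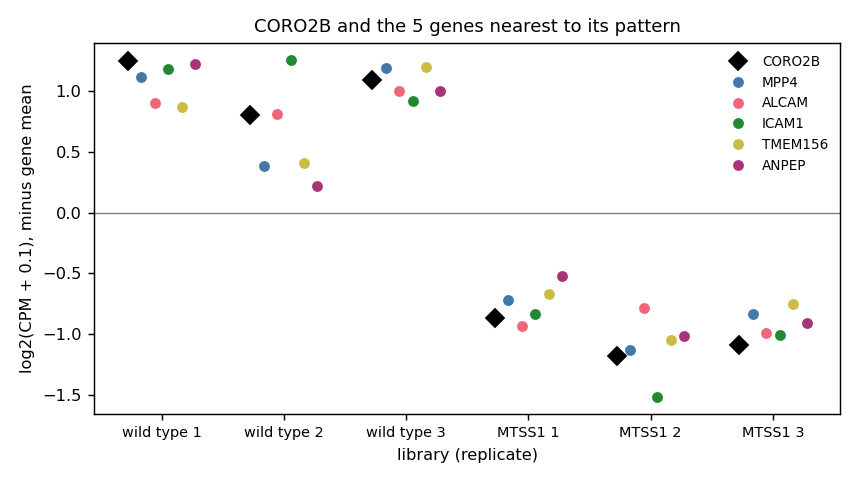
Centred log2(CPM + 0.1) of CORO2B (black diamonds) and of the 5 nearest genes in each library. All 6 genes are above their mean in the 3 wild type libraries and below it in the 3 overexpressing libraries, and wild type replicate 2 lies closest to the mean for CORO2B, MPP4, TMEM156 and ANPEP.

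Genes of proteins that work with coronins were followed in 8 lists with 90 genes, of which 84 were fitted. Past the threshold were 2 higher and 2 lower (4.76% of 84, against 4.28% of all genes), and the median log2 fold change of the 84 was -0.01. With the replicate block the counts were 7 and 16 (27.4%, against 22.7% of all genes).

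None of the 10 genes of the Arp2/3 complex, the direct partner of type I coronins, passed the test, with a median log2 fold change of -0.13 (0 higher and 3 lower with the block). ACTR2, the subunit gene with the highest level, stood at 476 ± 33.0 and 438 ± 6.96 CPM (SD, n = 3). The 3 lower with the block were ACTR3, ARPC4 and ARPC5L (edgeR adjusted p = 0.000265, 0.000734 and 0.00844). Their log2 fold changes were -0.37, -0.42 and -0.28 (edgeR adjusted p without the block 0.0585, 0.054 and 0.237). ACTR3B and ARPC1A were above 0, at 0.33 and 0.08. The other genes of the complex were below 0. Of 21 fitted genes that promote, stabilise or restrain branched actin, 1 was higher and 1 lower (median 0.05, with the block 2 and 4). The genes called without the block, CYFIP2 and CYFIP1, encode the same subunit of the WAVE regulatory complex. ARPIN, which encodes an inhibitor of the Arp2/3 complex, was among the higher genes with the block (edgeR adjusted p = 0.0455).

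CYFIP1 stood at 91.9, 105 and 89.6 CPM in wild type and at 63.5, 56.3 and 59.2 CPM in overexpressing cells. It fell by 0.68 on the log2 scale (SE 0.09, edgeR adjusted p = 0.00595), without overlap of the groups and in each of the 6 fits without 1 library (highest edgeR adjusted p 0.037). Like CORO2B it lies on chromosome 15 (22867052 to 22981063), where the median of its 50 neighbours was -0.38, and relative to them it was at -0.30 and not past the threshold (edgeR adjusted p = 0.155).

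CYFIP2, its paralog on chromosome 5, stood at 4.51, 5.75 and 6.01 CPM in wild type and at 9.99, 10.7 and 9.37 CPM in overexpressing cells. It rose by 0.88 (SE 0.17, edgeR adjusted p = 0.0234), and did so relative to its neighbours too (edgeR adjusted p = 0.0387). Without any 1 of the 6 libraries the call was lost (highest edgeR adjusted p 0.0816, log2 fold changes between 0.77 and 0.96).

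Of 17 fitted genes of cofilin, its regulators and other actin disassembly factors, none passed the test (median -0.09, with the block 1 higher and 3 lower). The list mixes opposed functions, since the kinases LIMK1, LIMK2, TESK1 and TESK2 in it inactivate cofilin. CFL1, encoding cofilin, stood at 687 ± 66.8 and 723 ± 39.2 CPM (SD, n = 3).

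The remaining 2 partner genes past the threshold were PAK1 and RAC3. PAK1, a kinase that Rac and Cdc42 switch on, stood at 66.5, 66.3 and 66.5 CPM in wild type and at 44.5, 48.4 and 44.9 CPM in overexpressing cells. It fell by 0.53 (SE 0.08, edgeR adjusted p = 0.0101). Leaving out replicate 3 of wild type (edgeR adjusted p = 0.0578) or of overexpressing cells (0.0538) ended this call. So did the neighbour offset, at -0.22 on the log2 scale (edgeR adjusted p = 0.253), and the neighbours of PAK1 on chromosome 11 had a median of -0.32.

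RAC3, a Rac GTPase, stood at 26.2, 20.4 and 20.8 CPM in wild type and at 38.5, 37.3 and 30.1 CPM in overexpressing cells. It rose by 0.65 (SE 0.14, edgeR adjusted p = 0.0357). This call held without wild type replicate 1 and was lost in the other 5 fits without 1 library (highest edgeR adjusted p 0.133), with log2 fold changes of 0.59 to 0.76 there. The neighbour offset ended it as well, at 0.56 (edgeR adjusted p = 0.0903).

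Among lists tied to single members, none of the 3 genes of the KLHL20-CUL3 ubiquitin ligase, which acts on coronin 7, passed the test (median -0.01; 0 and 1 with the block), and CUL3 stood at 188 ± 8.65 and 207 ± 13.1 CPM (SD, n = 3). The 1 lower with the block was KLHL20, at 22.6 ± 2.79 and 16.55 ± 2.38 CPM. Its log2 fold change was -0.45 (edgeR adjusted p = 0.125, and 0.00827 with the block). Those of CUL3 and RBX1 were 0.14 and -0.01. None of 6 focal adhesion genes passed the test (median -0.11; 0 and 2 with the block). VCL, encoding vinculin, stood at 743 ± 18.4 and 659.9 ± 13.9 CPM, without overlap of the groups, and was past the threshold with the block (edgeR adjusted p = 0.0138). None of 6 genes of cytoplasmic actins and monomer binders passed it (median 0.03; 1 and 1 with the block), ACTG1 standing at 2867 ± 304 and 3027 ± 417 CPM.

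**Figure D5:**
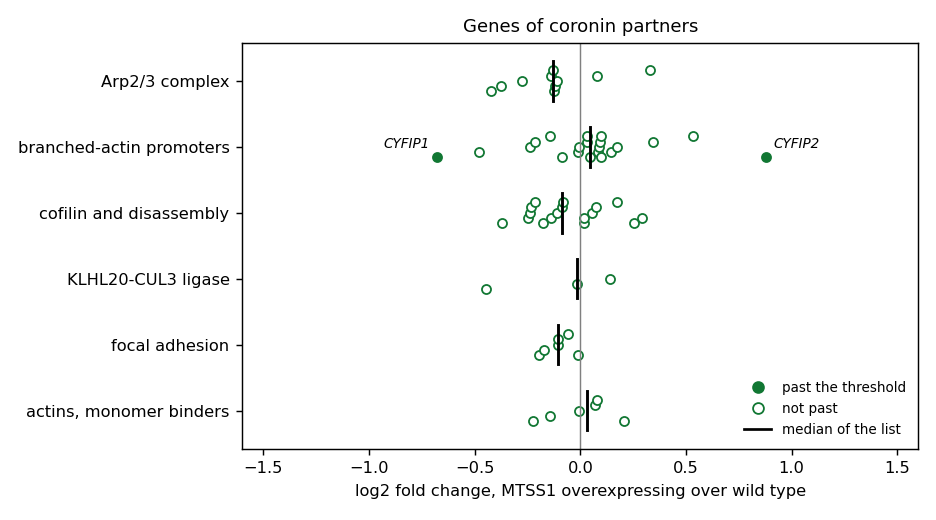
Log2 fold change (MTSS1-overexpressing over wild type) of 63 fitted genes of coronin partners in 6 of the 8 lists. Filled points passed the edgeR threshold, and black bars are list medians, which lie between -0.13 and 0.05; CYFIP1 is lower and CYFIP2 higher.

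Since CORO2B is known from neurons, 8 neuronal markers were read beside it. Of these, 7 were fitted and none passed the test (median log2 fold change 0.05). With the block 0 were higher and 2 lower, where 22.7% of all fitted genes were called (12% lower). The summed level of the 8 markers lay between 54.9 and 59.4 CPM in wild type and between 54.1 and 67.1 CPM in overexpressing libraries. None was at 0 in all libraries, and the highest, the enolase gene ENO2, stood at 29.3 ± 1.29 and 34.9 ± 9.88 CPM (SD, n = 3). The 2 lower with the block were MAP2, a microtubule-associated protein gene, and SNAP25, a gene of synaptic vesicle fusion. MAP2 stood at 2.65, 8.77 and 3.72 CPM in wild type and at 2.20, 2.58 and 2.08 CPM in overexpressing cells (log2 fold change -1.15, edgeR adjusted p = 0.156, and 0.0169 with the block). SNAP25 stood at 6.52, 6.85 and 8.37 CPM in wild type and at 4.26, 5.54 and 5.20 CPM in overexpressing cells (log2 fold change -0.53, edgeR adjusted p = 0.153, and 0.0318 with the block). Neither overlapped between the groups, as held for 25.5% of all fitted genes. Wild type replicate 2 was well above the other libraries for MAP2. The other fitted markers, TUBB3, ENO2, NEFM, SYP and NEFL, had log2 fold changes above 0 (0.42, 0.26, 0.06, 0.05 and 0.04). RBFOX3, the neuronal nuclear marker NeuN, was not fitted and had 33 counts in wild type, 26 of them in replicate 2, and 0 in the overexpressing libraries. Their part in the CORO2B difference was not tested.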

How the data were processed

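Poly(A) RNA was read as single reads of 50 cycles. The deposited table holds raw read counts per Ensembl gene, made with bcl2fastq, HISAT2 2.1.0, HTSeq and the GRCh38 build per the submitters' processing notes. The sources used here give neither the annotation nor the strand setting. Symbols came from a name table and, with coordinates and exon lengths, from GENCODE release 29 (GRCh38).

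From the counts, edgeR 4.0.16 in R 4.3.3 computed TMM scaling, filterByExpr and the two-sided quasi-likelihood test over 16091 genes, with Benjamini-Hochberg adjustment and a threshold of 0.05. SE is the log2 fold change divided by the square root of F. The fit was tested on simulated data in which libraries were independent, so not on paired libraries. CPM uses TMM-scaled totals. Alternatives were DESeq2 1.42.0, its size factors in edgeR, no low-count filter, single libraries left out, a replicate block, a neighbour offset, other lengths, unscaled totals and other neighbour numbers.

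The labels pair no libraries, but title numbers fall into 3 neighbouring pairs, whose deviations from group means correlated at 0.66, 0.34 and 0.38. Libraries of the 2 groups outside these pairs correlated between -0.40 and 0.10. Deviations from a group mean cancel within the group, so high values inside pairs lower those outside, which are not separate evidence of pairing. The pair at 0.66, replicate 1, had the lowest total counts of each group, and the part of depth in this was not tested. Values with the replicate block stand beside results only where it changed a call or a count of calls.

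The members and lists were chosen with earlier results of these data known. Named genes were the 7 coronins, MTSS1, up to 4 called genes of each list by smallest adjusted p (or its most abundant gene), 3 fitted genes on each side of CORO2B and the 5 genes most like it. Others were named after their values were seen. Results of 2 of the lists are not reported here.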

Additional observations from a re-analysis of the deposited data

How the results depend on the processing

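The log2 fold change of CORO2B lay between -2.24 and -1.89 over the 12 alternatives. CORO2A kept its direction under all 12 and was past the threshold in 1, the replicate block (log2 fold change -0.64), which made 2 coronin genes called in place of 1. The block changed the call of no other coronin gene. CORO1A kept its direction and was never called. Leaving out 1 library moved the log2 fold change of CORO1B between -0.30 and 0.0117, of CORO1C between -0.0053 and 0.0911 and of CORO6 between -0.15 and 0.34 (-0.09 without wild type replicate 3), with no call. The number of genes past the threshold was 688 of 16091, and 3651 with the replicate block, 1253 with the DESeq2 Wald test, 1489 without a filter on low counts, 337 with the neighbour offset and between 145 and 346 without 1 library. Without both replicates numbered 1 it was 132. Coronin partner genes past the threshold, 2 higher and 2 lower, became 7 and 16 with the replicate block and 1 and 0 with the neighbour offset. They were 0 to 1 higher and 1 to 2 lower without 1 library, and 0 and 1 without both replicates numbered 1. The DESeq2 Wald test and the fit without a filter each gave 4 lower partner genes. The cause of these shifts was not tested, except that fits without libraries have fewer samples. Levels per kb with the length of the longest transcript were 88.7 CPM per kb for CORO1C and 26.3 for CORO1B in wild type, and unscaled totals moved none by more than the replicate SD. With 20 neighbours, the medians around CORO1C and CORO6 were -0.03 and -0.12. CORO1A and CORO6 had 125 to 142 pooled counts per group and SEs of 0.29 and 0.36, so differences of that size were not detectable. Counting error and spread between libraries (CV of 26.7% and 31.9% for CORO6) both enter these SEs.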
